A study of Rattus norvegicus with 6 samples.

Results

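The genes described here encode the MCM helicase and the proteins that license DNA replication. They are Mcm2, Mcm3, Mcm4, Mcm5, Mcm6, Mcm7, Mcm10, Cdt1, Cdc6 and Gmnn, 10 of the 16499 distinct symbols in a table of 17221 transcript rows. Members were chosen by name, each as the most abundant row of its symbol, and every one of the 10 had a single row. The low level of Mcm5 in the rat sera was known when the list was made, so Mcm5 is described without a test, and the p-values of the other 9 are not independent evidence.

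The cells were rat synovial fibroblast-like cells (RASFLs), grown from the joint lining of 2 female Wistar rats with collagen-induced arthritis before any therapy. Cells of each rat were divided over 3 media, which gave 6 poly(A) RNA libraries. FBS is the standard medium with fetal bovine serum. MS- is medium with blood serum of animals that received no needle stimulation, and MS+ is medium with blood serum of animals that had needle stimulation, which the labels call acupuncture, for 18 days. The sources differ on the MS- serum, which they place before therapy or, in untreated arthritic rats, at day 18. All 3 groups thus share the arthritic donors, the strain and the sex, and they differ in serum. One label field of MS- says healthy rats, while its title and disease field say arthritis. The labels do not say how many animals gave each serum, and the age of the cell donors is not given in the sources used here. Replicates are the 2 rats whose cells were grown (n = 2 per group), so p-values measure the spread between these cultures, not between serum donors.

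Replication licensing is the step in G1 that prepares chromosomes to be copied once per cell cycle. The origin recognition complex and Cdc6 hold a site on DNA, Cdt1 brings the ring of Mcm2 to Mcm7, and the ring is closed around DNA as an inactive helicase. In S phase the ring is activated with Cdc45, the GINS complex and Mcm10, while geminin, the product of Gmnn, binds Cdt1 and blocks further loading. Quiescent fibroblasts are known to carry little of these transcripts, and serum growth factors raise them through transcription factors of the E2F family. Growth of synovial fibroblasts is a known feature of the inflamed joint.

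Because E2F factors are the known regulators of this family, promoter sequence is shown first. Sequences were taken from RefSeq promoters of the build GRCr8, from 250 bases before to 50 bases after each start, and 8 of the 10 members were matched. Mcm5 was matched by symbol alone, since its deposited accession is not in the gene table of that build. The E2F words TTTGGCGC, TTTCCCGC, TTTCGCGC and TTTGCCGC were searched on both strands. One of them was found in 7 of the 8 members (Mcm2, Mcm3, Mcm5, Mcm6, Mcm7, Cdt1 and Gmnn) and in 2.25% of all 27457 promoters. Among the promoters of genes tested for expression the share was 4.1%. The windows below hold 1 E2F site, a word or an overlapping pair, of each of the 4 members with a word wholly before the start. All 4 encode helicase subunits. In Mcm3, Cdt1 and Gmnn the words overlap the start or lie after it. Capitals mark the E2F words, read on the strand of the gene from 5′ to 3′.
Mcm2: ggtcacgtgacccggtTTTCGCGCGAAAac
Mcm5: cggacgaactcccaggttggttTTTCCCGC
Mcm6: gtctgctTTTGGCGCGAAAttagcgtgtgg
Mcm7: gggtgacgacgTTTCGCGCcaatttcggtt

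In GRCr8 these windows of 30 bases lie at chr4:122918095-122918124 on the minus strand (Mcm2), at chr19:13488783-13488812 on the plus strand (Mcm5), at chr13:42404469-42404498 on the minus strand (Mcm6) and at chr12:22163212-22163241 on the minus strand (Mcm7). Positions count from the start, with -1 for the base before it. The Mcm2 window ends at position -1, and its capitals join 2 overlapping words on opposite strands. The Mcm5 window also ends there, with the word in its last bases, and an overlapping pair at positions -213 to -202 lies outside it. In Mcm6 a pair of overlapping words begins at position -139. In Mcm7 the word begins at position -52, and its last base is also the first base of a CCAAT box, while a further word at positions -233 to -226 lies outside the window. This CCAAT box, the NF-Y word, was found in 6 of the 8 members (Mcm3, Mcm5, Mcm6, Mcm7, Mcm10 and Gmnn), beside 37.7% of all promoters. The cell cycle homology word TTTGAA was found in 1 of the 8, Mcm2, beside 18.1% of all promoters. A match of letters is a description, and binding was not measured in these cells.

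**Figure D1:**
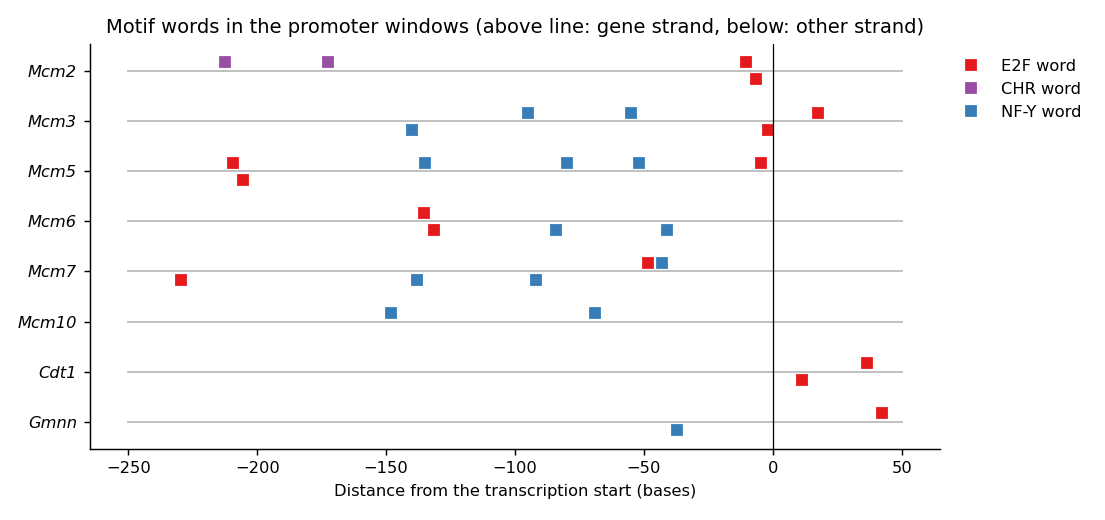
Positions of the searched words in the promoter windows of 8 members, with the distance from the transcription start in bases on the x axis and 1 line per gene. Words on the strand of the gene are above its line and words on the other strand below it, and Mcm10 is the one member without an E2F word.

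Levels are given as TMM-scaled CPM, the authors' signal of reads relative to the effective library size, and the value of rat 1 always precedes that of rat 2. A library held 5463316 to 5991889 reads, so 3 reads, taken as a floor of detection, were worth 0.491 to 0.551 CPM. No transcript length was used, so levels are compared between libraries and not between genes. Differences are log2 fold changes of CPM + 1, a scale on which the changes of low genes look smaller than they are. They were tested with limma across 9820 rows, and "adjusted p" is the Benjamini-Hochberg value over all of them. In bulk RNA, fewer cells of a kind and less RNA per cell cannot be told apart.

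The 6 subunits of the ring all had their highest levels in FBS. Their summed signal was 172 and 171 CPM in FBS, 61.5 and 62.2 CPM in MS-, and 62.7 and 58.2 CPM in MS+. The group means were 171 ± 1.25 CPM (SD, n = 2) in FBS, 61.8 ± 0.51 CPM in MS- and 60.4 ± 3.20 CPM in MS+, so the sum was 2.77-fold lower in MS- and 2.84-fold lower in MS+ than in FBS. Mcm5, listed with its low level in the rat sera known, is part of these sums. Its means were 20.8 CPM in FBS, 1.18 CPM in MS- and 3.91 CPM in MS+, and a sum without it was not computed. The MS- and MS+ sums overlapped between libraries, while the single subunits behind them did not all behave alike.

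**Figure D2:**
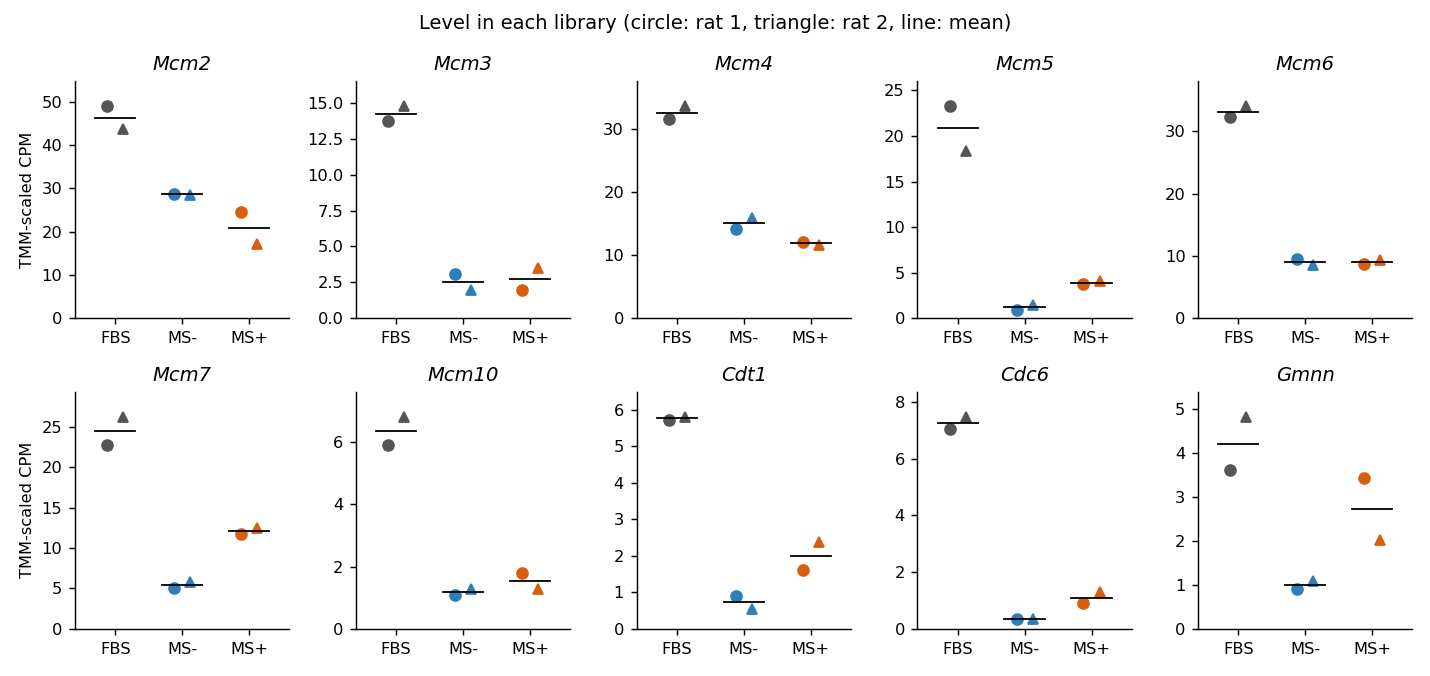
TMM-scaled CPM of each member in each of the 6 libraries (y axis, 1 panel and scale per gene), with circles for rat 1, triangles for rat 2 and a line at the group mean. FBS lies above both rat sera in every panel, and Mcm5 and Mcm7 are higher in MS+ than in MS- in both rats.

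Mcm2 (NM_001107873, rn4 chr4:122977522-122991934, minus strand) encodes a ring subunit that also binds histones. It stood at 48.9 and 43.8 CPM in FBS, at 28.7 and 28.6 CPM in MS-, and at 24.5 and 17.3 CPM in MS+. The 3 groups did not overlap, and MS+ was lowest. Against FBS the log2 fold change was -0.67 (SE 0.18, adjusted p = 0.0892 by limma) in MS-, the smallest of the 10 members. Adding the rat to the limma fit as a block gave an adjusted p of 0.00293, and over all alternatives it ran from 0.000914 to 0.358. In MS+ the transcript fell against FBS (log2 fold change -1.13, SE 0.18, adjusted p = 0.0147 by limma). The difference of MS+ from MS- was -0.22 in rat 1 and -0.70 in rat 2, and the fitted difference of -0.46 did not pass the limma test (SE 0.18, adjusted p = 0.305; with the rat as a block, 0.0508).

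Mcm4 (NM_033651, chr11:87169742-87183443, plus strand) encodes a subunit of the catalytic Mcm4-6-7 core. Its levels were 31.4 and 33.5 CPM in FBS, 14.1 and 15.9 CPM in MS-, and 12.1 and 11.6 CPM in MS+. The order of the groups was that of Mcm2, again with no overlap. Mcm4 fell in both rat sera, with a log2 fold change of -1.07 in MS- (SE 0.14, adjusted p = 0.0115 by limma) and -1.38 in MS+ (SE 0.14, adjusted p = 0.00526). The difference between the rat sera, -0.32 (SE 0.14), did not pass (limma, adjusted p = 0.370).

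Mcm6 (NM_017287, chr13:41045677-41070868, minus strand), of the same core, had 32.2 and 34.0 CPM in FBS, 9.51 and 8.5 CPM in MS-, and 8.65 and 9.36 CPM in MS+. The rat sera gave overlapping values, and their means were both 9.0 CPM, with SDs of 0.72 and 0.50. Mcm6 fell with a log2 fold change of -1.77 in MS- (SE 0.15, limma, adjusted p = 0.00263) and -1.77 in MS+ (SE 0.15, adjusted p = 0.00342), which was 3.68-fold in each on the CPM scale. The MS+ over MS- ratio of reads was 1.00, with a counting interval of 0.749 to 1.33 at 95%.

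Mcm3 (NM_001191805, chr9:19536922-19554871, minus strand), which sits beside Mcm5 in the ring, had 13.8 and 14.8 CPM in FBS. It had 3.11 and 1.99 CPM in MS- and 1.98 and 3.49 CPM in MS+, so the rat sera overlapped. Mcm3 fell in MS- (-2.12, SE 0.28, limma, adjusted p = 0.0107) and in MS+ (-2.06, SE 0.28, adjusted p = 0.00965). Between the rat sera its difference was -0.46 in rat 1 and 0.59 in rat 2, on 11 to 19 reads per library.

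Mcm5 (NM_001106170, chr19:13978940-14000641, plus strand) forms, with Mcm2, the gate through which the ring opens. Its levels were 23.2 and 18.4 CPM in FBS, 0.915 and 1.45 CPM in MS-, and 3.78 and 4.04 CPM in MS+. The 3 groups were far apart. On the CPM scale the mean was 17.6-fold lower in MS- and 5.33-fold lower in MS+ than in FBS, the widest spread of any ring subunit, and 3.31-fold higher in MS+ than in MS-. The log2 fold changes were -3.33, -2.14 and 1.18, each with an SE of 0.23. The MS- values rest on 5 and 8 reads and the MS+ values on 21 and 22 reads.

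Mcm7 (NM_001004203, chr12:17607250-17614508, minus strand) completes the core with Mcm4 and Mcm6. It stood at 22.8 and 26.2 CPM in FBS, at 5.12 and 5.78 CPM in MS-, and at 11.7 and 12.5 CPM in MS+. The groups did not overlap, and MS+ lay between the other two. Mcm7 fell in MS- (-1.98, SE 0.17, limma, adjusted p = 0.00239) and in MS+ (-0.96, SE 0.17, adjusted p = 0.0202). MS+ was 2.22-fold above MS- on the CPM scale, and the log2 difference was 1.05 in rat 1 and 0.99 in rat 2. This difference of 1.02 (SE 0.17) did not pass the limma test over all rows (adjusted p = 0.111) and passed with the rat as a block (adjusted p = 0.00183). Over all alternatives the adjusted p ran from 0.00183 to 0.466, the highest without the MS+ library of rat 2. The span of Mcm7 contains rows of the microRNAs Mir25, Mir93 and Mir106b, which held at most 1 read in a library. How reads shared with them were counted was not checked.

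The 2 loading factors were the members with the fewest reads in MS-. Cdc6 (NM_001108298, chr10:87684493-87697865, plus strand), an ATPase that joins the origin recognition complex, had 7.04 and 7.46 CPM in FBS, 0.366 and 0.362 CPM in MS-, and 0.901 and 1.28 CPM in MS+. Both MS- values are 2 reads and lie under the floor of 3 reads, so the reads are compared directly. Over both rats FBS held 88 reads and MS- 4, a 19.9-fold difference in level with a 95% counting interval of 7.51 to 74.8. On the log2(CPM + 1) scale Cdc6 fell in MS- (-2.6, SE 0.24, limma, adjusted p = 0.00338) and in MS+ (-1.98, SE 0.24, adjusted p = 0.00803). It passed the filter on low values only through FBS, so a difference from FBS was part of its selection. The ratio of MS+ to MS-, on 12 against 4 reads, was 3.00 with an interval of 0.909 to 12.8.

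Cdt1 (NM_001106192, chr19:52848559-52853880, plus strand), which carries the ring to the origin, had 5.73 and 5.80 CPM in FBS, 0.915 and 0.542 CPM in MS-, and 1.62 and 2.39 CPM in MS+. The groups were ordered FBS, MS+, MS- without overlap. Cdt1 fell in MS- (-1.98, SE 0.26, limma, adjusted p = 0.0106) and in MS+ (-1.18, SE 0.26, adjusted p = 0.0374). MS+ over MS- was 0.79 (SE 0.26, limma, adjusted p = 0.242, and 0.0815 with the rat as a block). By reads, 22 against 8, the ratio was 2.75 with a 95% counting interval of 1.18 to 7.14, which leaves out the spread between cultures.

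Gmnn (NM_001106112, chr17:47372316-47380559, plus strand) encodes geminin, the inhibitor of Cdt1. It had 3.60 and 4.81 CPM in FBS, 0.915 and 1.08 CPM in MS-, and 3.42 and 2.02 CPM in MS+. In rat 1 the MS+ level was close to FBS, with a log2 difference of -0.06, and in rat 2 it was -0.94. Gmnn fell in MS- (-1.37, SE 0.28, limma, adjusted p = 0.0455), a call lost in 11 of 18 alternatives, and the MS+ difference from FBS of -0.50 (SE 0.28) did not pass (adjusted p = 0.305). MS+ over MS- was 0.87 (SE 0.28, limma, adjusted p = 0.242, and 0.0657 in the blocked fit). The 30 against 11 reads gave a ratio of 2.73 with a counting interval of 1.33 to 6.03, which leaves out the spread between cultures. Per library, Cdt1 reads over Gmnn reads were 1.59 and 1.21 in FBS, 1.00 and 0.50 in MS-, and 0.474 and 1.18 in MS+, so the MS+ libraries bracketed those of MS-.

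Mcm10 (NM_001107366, chr17:84354481-84375749, plus strand) acts after licensing, when the loaded ring is activated. Its levels were 5.89 and 6.80 CPM in FBS, 1.1 and 1.27 CPM in MS-, and 1.80 and 1.28 CPM in MS+. Both rat sera were low, with MS+ of rat 2 next to MS- of rat 2. Mcm10 fell in MS- (-1.75, SE 0.24, limma, adjusted p = 0.0125) and in MS+ (-1.53, SE 0.24, adjusted p = 0.0149). Between the rat sera the difference was 0.21 (SE 0.24, limma, adjusted p = 0.741).

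**Figure D3:**
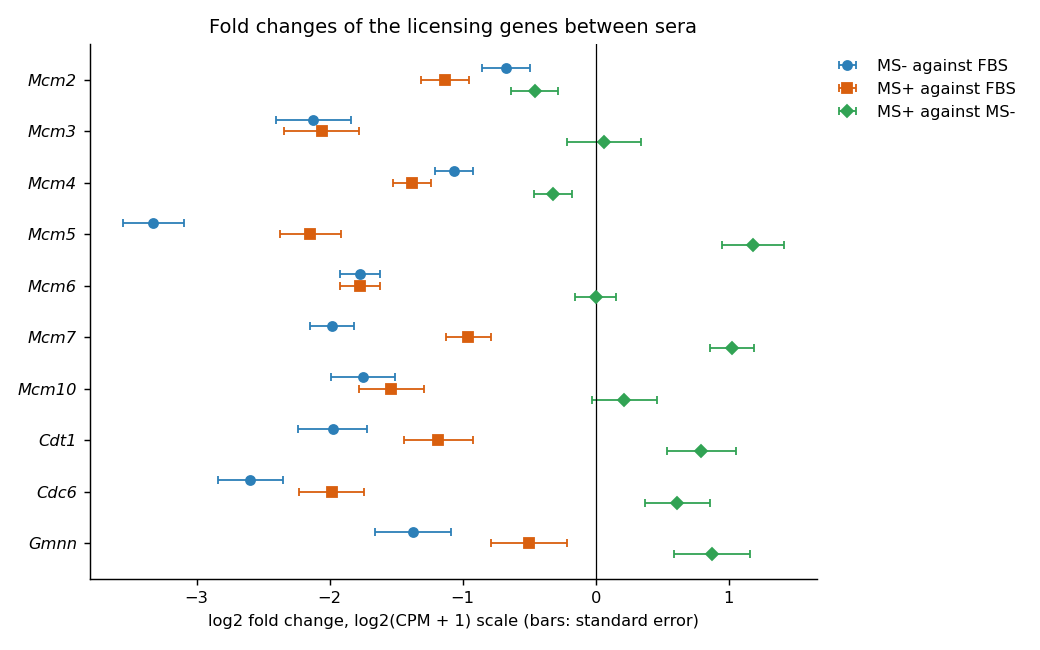
Log2 fold change of each member on the log2(CPM + 1) scale (x axis) in the 3 comparisons, with bars for the standard error of the limma fit. Both comparisons with FBS lie left of 0 for every member, from -3.33 to -0.67 in MS- and from -2.14 to -0.50 in MS+, while MS+ against MS- runs from -0.46 in Mcm2 to 1.18 in Mcm5.

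The first comparison asks how serum of untreated animals and fetal bovine serum differ in their effect on the cells. In MS- all 10 members were below FBS, with a median log2 fold change of -1.87 (-1.77 without Mcm5), beside 0.01 over all rows tested. Within rat 1 the median was -1.76 and within rat 2 it was -1.94. Apart from Mcm5, 8 of 9 members fell (limma, adjusted p under 0.05), and Mcm2 did not. Cdc6, Cdt1 and Gmnn, part of these 8, did not pass the filter on low values in MS-, so their falls were partly set by selection. Of all rows tested, 2.72% were called lower. With the rat as a block all 9 were called, beside 9.63% of all rows. By the rule of the study (unadjusted p under 0.05, 2-fold or more, mean of at least 1 CPM) 8 of 9 were called lower, beside 2.37% of all rows. The fold limit was set here on log2(CPM + 1), while the study used limma-voom. In 9 of 9 the MS- libraries lay below both FBS libraries, as in 24.5% of all rows. The members were listed with this contrast known, so nothing is read from their count.

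The calls against FBS rest on few libraries. In MS- against FBS the count of 8 was 3 without FBS of rat 1, 3 without FBS of rat 2, 4 without MS- of rat 1, 3 without MS- of rat 2, and 7 without either MS+ library, where Gmnn lost the call. The share of all rows called lower fell too, to 0.522%, 0.897%, 0.744% and 0.927% without those FBS and MS- libraries, in that order, and to 1.68% and 1.72% without MS+ of rat 1 and of rat 2. Mcm6, Mcm7 and Cdc6 were called under every alternative run, with adjusted p of at most 0.0349, 0.0311 and 0.0461 (limma without FBS of rat 1). Of these, Cdc6 passed the filter on low values through FBS alone, so its difference from FBS was partly set by selection. Cdt1 and Gmnn passed it through FBS and MS+ but not through MS-, so their falls in MS- were partly set by selection too. Mcm3, Mcm4, Mcm10 and Cdt1 lost the call only where a library of FBS or MS- was left out, with adjusted p of at most 0.0930. Gmnn was the least stable of the 8 and lost the call in 11 of 18 alternatives. They were the 6 that left out a library (adjusted p of up to 0.209, without MS- of rat 1), DESeq2 (0.0983), limma-voom (0.0637), no filter (0.0687), the 2 groups alone (0.0616) and a pseudocount of 5 (0.0534).

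The second comparison sets serum of stimulated animals against the same FBS libraries. In MS+ all 10 members were again below FBS, with a median of -1.46 (-1.38 without Mcm5), beside 0.0008 over all rows, and of -1.34 and -1.61 within the rats. Apart from Mcm5, 8 of 9 fell (limma, adjusted p under 0.05), and Gmnn did not. Cdc6, part of these counts, passed the filter through FBS alone, so its fall was partly set by selection. Of all rows, 4.66% were called lower. With the rat as a block 8 of 9 were called, beside 13.9% of all rows. The rule of the study called 7 of 9, beside 2.92%, since Mcm7 missed its 2-fold limit on the log2(CPM + 1) scale. With limma-voom, the method of the study, the log2 fold change of Mcm7 was -1.01. The groups did not overlap in 9 of 9, as in 28.3% of all rows. This comparison shares its FBS libraries with the first, so the 2 are not independent of each other. The members were chosen with earlier results of these data known, so nothing is read from their count.

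Leaving out 1 library again changed these calls. In MS+ against FBS the count of 8 was 2 without FBS of rat 1, 2 without FBS of rat 2, 0 without MS+ of rat 1, 4 without MS+ of rat 2, and 7 without either MS- library, where Cdt1 lost the call. The share of all rows called lower was then 0.492%, 0.746%, 0.0301% and 0.592%, in that order, and 2.48% and 2.85% without MS- of rat 1 and of rat 2. Without MS+ of rat 1 the adjusted p of the 8 members ran from 0.0536 for Mcm6 to 0.1745 for Cdt1, by limma, with every fold change still below 0. Cdt1 also lost the call with DESeq2 (adjusted p = 0.157) and with a pseudocount of 0.1 (limma, adjusted p = 0.0707).

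The third comparison sets MS+ against MS-, serum of stimulated against serum of unstimulated animals. If the MS- serum was drawn before therapy, stimulation and the day of sampling cannot be told apart. The median of the 10 members was 0.41, and 0.21 without Mcm5, with 8 higher and 2 lower, beside -0.006 over all rows, and it was 0.44 in rat 1 and 0.56 in rat 2. None of the 9 tested members was called in either direction (limma, adjusted p under 0.05), and of all rows 0.0102% were called higher and 0.0102% lower. At an unadjusted p under 0.05, 4 members were higher (Mcm7, Cdt1, Cdc6 and Gmnn) and 1 was lower (Mcm2), beside 7.53% and 7.2% of all rows. Cdt1 and Gmnn passed the filter on low values in FBS and MS+ but not in MS-, so their differences here were partly set by selection. On the recovered reads, without a block, edgeR and limma-voom also called 0 of 9. DESeq2 called 0 of the 5 members to which it gave an adjusted p, and gave none for Mcm10, Cdt1, Cdc6 and Gmnn. With the rat as a block 1 member, Mcm7, was called higher, beside 5.27% of all rows, and 0 were called lower, beside 4.78%. The rule of the study, with its fold limit set on log2(CPM + 1), called Mcm7 alone higher, beside 0.845%, and 0 lower, beside 0.397%. With limma-voom, the method of the study, the log2 differences of Cdt1 and Gmnn were 1.38 and 1.34, past 2-fold. The rule was not run on that scale.

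Mcm7, Mcm10, Cdt1, Cdc6 and Gmnn, 5 of 9, had both MS+ libraries above both MS- libraries, as had 22.6% of all rows. For Mcm10 the rat 2 libraries held 7 reads in each serum, so their order came from the scaling alone. Cdc6 had 2 reads in each MS- library, under the floor of 3. Mcm2 and Mcm4 had both MS+ libraries below both MS- libraries, as had 23.1% of all rows. Mcm3 and Mcm6 overlapped.

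The ring transcripts had a different make-up in each serum, while their sums in the rat sera overlapped. Shares are of the reads of Mcm2 to Mcm7 in a library, each with an exact (Clopper-Pearson) interval at 95%, which covers counting error only. Between libraries, transcript length cancels in the ratio of a gene pair. A share also depends on the lengths of the other ring transcripts. Mcm7 made up 13.2% and 15.4% of the ring reads in FBS, 8.33% (5.61 to 11.8) and 9.30% (6.45 to 12.9) in MS-, and 18.7% (14.7 to 23.2) and 21.5% (17.1 to 26.4) in MS+. Its intervals in MS- and MS+ were apart in every pairing of libraries. In FBS they were 11.2 to 15.4 in rat 1 and 13.2 to 17.7 in rat 2. The first overlapped the MS+ interval of rat 1, and the second overlapped those of both MS+ libraries. Mcm5 made up 13.5% and 10.8% in FBS, 1.49% (0.485 to 3.44) and 2.33% (1.01 to 4.53) in MS-, and 6.03% (3.77 to 9.08) and 6.94% (4.40 to 10.3) in MS+.

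Mcm2 took the opposite course in share, while its level was below FBS in both rat sera. A share depends on the other subunits too, so it can rise while a level falls. It was 28.4% and 25.7% in FBS and 46.7% (41.3 to 52.2) and 45.9% (40.6 to 51.4) in MS-. In MS+ it was 39.1% (33.9 to 44.4) in rat 1 and 29.7% (24.7 to 35.0) in rat 2. The MS+ interval of rat 1 overlapped those of both MS- libraries, and that of rat 2 overlapped those of both FBS libraries. Mcm4 ranged from 18.2% to 25.6%, Mcm6 from 13.7% to 19.9% and Mcm3 from 3.16% to 8.65%. For Mcm6 and Mcm3 the MS- and MS+ shares overlapped. Groups of 2 libraries allow no permutation test that could pass, so these shares are descriptions.

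The reads of Mcm7 over those of Mcm4, its neighbour in the catalytic core, were 0.724 and 0.782 in FBS. They were 0.364 in both MS- libraries, and 0.970 and 1.08 in MS+. The ratio was lower in MS- and higher in MS+ than in FBS, in both rats. Mcm7 over Mcm2 was 0.465 and 0.598 in FBS, 0.178 and 0.203 in MS-, and 0.478 and 0.723 in MS+, so here MS+ of rat 1 lay between the FBS libraries. Mcm5 over Mcm2 was 0.475 and 0.420 in FBS, 0.0318 and 0.0506 in MS-, and 0.154 and 0.234 in MS+, so MS+ did not reach FBS here.

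**Figure D4:**
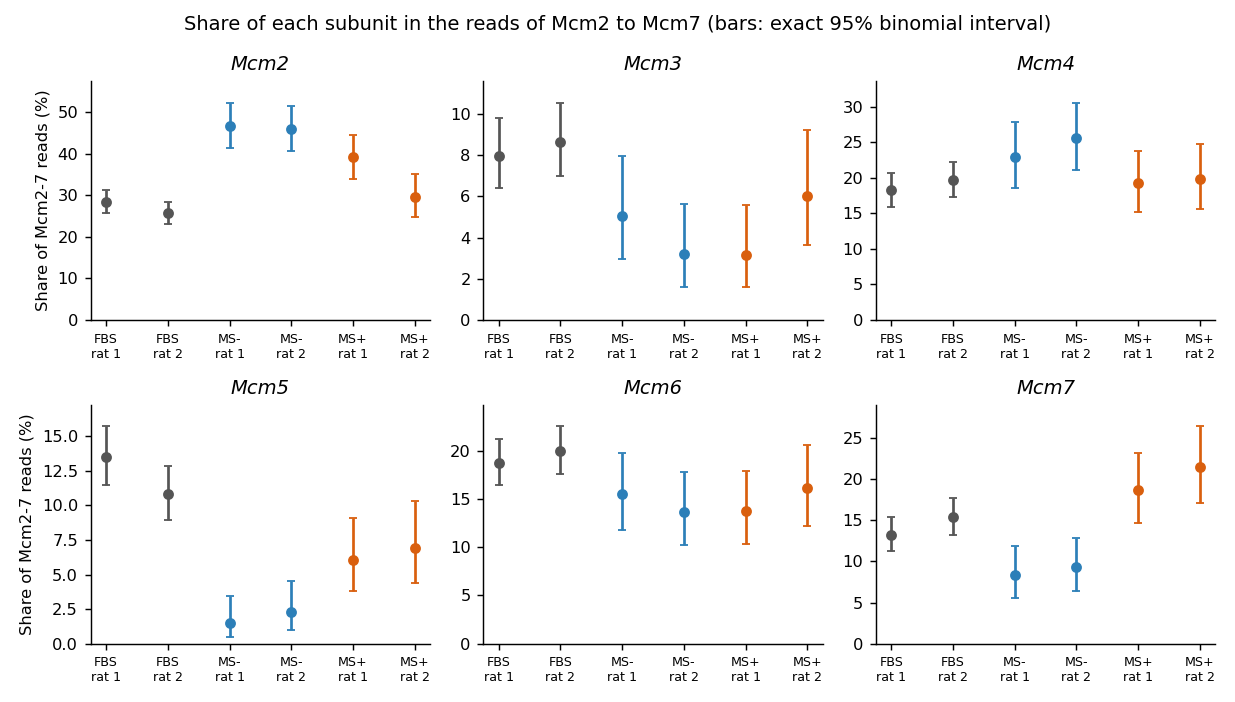
Share of each subunit in the reads of Mcm2 to Mcm7 (y axis, percent, 1 panel per subunit) in each of the 6 libraries, with bars for the exact 95% binomial interval. Mcm7 has its highest shares in MS+ (18.7% and 21.5%) and Mcm2 in MS- (46.7% and 45.9%).

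Between the 2 rats the same serum gave like values for most members. The difference of rat 2 from rat 1 on the log2(CPM + 1) scale ran from -0.32 (Mcm5) to 0.34 (Gmnn) in FBS and from -0.46 (Mcm3) to 0.35 (Mcm5) in MS-. In MS+ it ran from -0.55 (Gmnn) to 0.59 (Mcm3), with Mcm2 at -0.48 and Cdt1 at 0.37. The members therefore did not share one direction of difference between the rats.

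Other genes of the pathway were taken as whole lists. At an unadjusted p under 0.05 by limma, 10.1% of all rows were lower and 11% higher in MS- against FBS. In MS+ against FBS these shares were 13.8% and 13.7%. In MS+ against MS- they were 7.2% and 7.53%. The origin recognition complex, which marks origins through the cycle, had 6 of 6 genes tested, and the median log2 fold change against FBS was -0.14 in MS- and -0.21 in MS+. None was called in any comparison (limma; edgeR, limma-voom and DESeq2 also called 0, with no DESeq2 value for 1 gene between the rat sera), while 3 genes had an unadjusted p under 0.05 in MS- and 4 in MS+ against FBS, and 1 between the rat sera. With the rat in the fit as a block, Orc1 and Orc6 were called lower and Orc4 higher in MS-, Orc6 lower and Orc2 and Orc4 higher in MS+, and Orc2 higher in MS+ against MS-. The block called 9.63% of all rows lower in MS-, 13.9% lower in MS+, and 5.27% higher in MS+ against MS-. Against FBS it called 1065 of 9820 rows higher in MS- and 1410 in MS+. Orc4, the most abundant of the list by CPM, had 26.7 and 31.3 CPM in FBS, 37.9 and 44.8 CPM in MS-, and 40.5 and 41.8 CPM in MS+. Orc5 had 24.9 and 20.7 CPM in FBS, 21.4 and 18.1 CPM in MS-, and 16.0 and 19.6 CPM in MS+. The values of this complex did not lie on one side of FBS, with 4 genes lower and 2 higher in each rat serum. The largest falls were those of Orc1 (log2 fold change -0.97 in MS- and -0.74 in MS+) and Orc6 (-0.96 and -0.94). Orc4 was higher, at 0.50 in each.

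Helicase activation factors turn the loaded ring into a moving fork, and 10 of 12 listed genes had a row and were tested. All 10 were below FBS in both rat sera, as were 48.1% of all rows in MS- and 49.9% in MS+. The MS- median was -1.0, that of MS+ -1.02. In MS- 4 of 10 fell (Cdc45, Gins4, Recql4 and Wdhd1, by limma at adjusted p under 0.05), and 8 with the rat as a block. The shares of all rows were 2.72% and 9.63%. In MS+ 3 of 10 fell (Gins4, Dbf4 and Wdhd1), and 9 with the block, beside 4.66% and 13.9% of all rows. Cdc45, part of the active helicase, had 2.95 and 4.81 CPM in FBS and 0.183 and 0.904 CPM in MS- (log2 fold change -1.67, SE 0.36, limma, adjusted p = 0.0499), a call lost in 13 alternatives, at up to 0.225 without MS- of rat 1. Gins4, a GINS subunit, had 5.4 and 5.64 CPM in FBS, 1.1 and 1.45 CPM in MS-, and 1.08 and 2.02 CPM in MS+, and fell in both (-1.52 and -1.38, SE 0.27, limma, adjusted p = 0.0296 and 0.0280). These were at most 0.172 without MS- of rat 1 and 0.139 without MS+ of rat 1.

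Dbf4, which activates the Cdc7 kinase that phosphorylates the ring, had 12.3 and 11.1 CPM in FBS and 4.14 and 4.96 CPM in MS+, a fall (-1.2, SE 0.22, limma, adjusted p = 0.0244, and at most 0.136 without MS+ of rat 1). Between the rat sera 0 of 10 genes of this list were called by limma with or without the block, by edgeR or by limma-voom, DESeq2 called 0 of the 6 it gave an adjusted p, and 0 had an unadjusted p under 0.05. Gins2 and Cdc7, its most abundant genes with none called, differed by -0.11 and -0.27. Their levels in MS+ were 7.93 and 7.34 CPM for Gins2 and 4.86 and 5.87 CPM for Cdc7.

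Of the other MCM proteins 2 of 4 had a row and were tested, and both are outside the Mcm2 to Mcm7 ring. Mcm8, of a helicase used in DNA repair, had 3.44 and 2.32 CPM in FBS, 1.83 and 1.45 CPM in MS-, and 1.26 and 1.28 CPM in MS+. Mcm3ap, a nuclear export and Mcm3-binding protein, had 52.7 and 59.9 CPM in FBS, 67.7 and 74.5 CPM in MS-, and 77.8 and 75.4 CPM in MS+. Neither was called by limma without a block, nor by edgeR, limma-voom or DESeq2, which gave 1 of them a value between the rat sera. In limma with the block Mcm3ap was called higher against FBS in both rat sera (adjusted p = 0.0320 and 0.00462). So were 1065 of 9820 rows in MS- and 1410 in MS+.

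The E2F and RB family controls the transcription of licensing genes, and 10 of 17 listed genes had a row and were tested. E2f2, E2f4, E2f5, E2f8, Tfdp1, Lin9 and Lin52 had no row in the data. The median of the tested genes against FBS was 0.02 for MS- and 0.16 for MS+, so as a set they did not follow the ring. E2f1 and E2f7 fell in both rat sera and were the 2 genes called, beside 2.72% of all rows called lower in MS- and 4.66% in MS+. E2f1, an activator, had 19.2 and 21.2 CPM in FBS, 4.76 and 4.70 CPM in MS-, and 7.03 and 8.81 CPM in MS+, and fell in both (-1.89 and -1.25, SE 0.18, limma, adjusted p = 0.00391 and 0.0117). E2f7, an atypical repressor, had 4.75 and 6.80 CPM in FBS, 0.732 and 0.723 CPM in MS-, and 2.16 and 1.84 CPM in MS+, and fell in both (-1.95 and -1.16, SE 0.26, limma, adjusted p = 0.0107 and 0.0389). The E2f7 values were at most 0.0795 without MS- of rat 1 and 0.163 without FBS of rat 2, and the E2f1 value in MS+ was at most 0.0821 without MS+ of rat 1.

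Between the rat sera none of this family was called by limma, edgeR, limma-voom or DESeq2 (a value for 9 of 10). An unadjusted p under 0.05 by limma was seen in 2 genes, each higher in MS+, beside 7.53% of all rows. E2f1 was called higher in MS+ in the blocked fit (limma, adjusted p = 0.0495), beside 5.27% of all rows. Rb1, the retinoblastoma repressor of E2F, had 70.1 and 62.3 CPM in FBS, 90.9 and 94.9 CPM in MS-, and 101 and 83.3 CPM in MS+. E2f6 had 47.8 and 48.7 CPM in FBS, 71.9 and 56.0 CPM in MS-, and 74.4 and 65.0 CPM in MS+. With the block, Rb1, Rbl2 and E2f6 were called higher against FBS in both rat sera, as were 1065 of 9820 rows in MS- and 1410 in MS+.

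Licensing is limited by ubiquitin ligases and S-phase kinases, and 12 of 14 listed genes had a row and were tested. In MS- 4 fell against FBS (Ccna2, Cdc20, Ccne1 and Cdk1), and in MS+ 5 fell (the same 4 and Fbxo5) and Cul4b rose. The shares of all rows called lower were 2.72% and 4.66%, and 486 of 9820 rows were called higher in MS+. Ccna2, the S-phase cyclin A2, had 29.3 and 30.3 CPM in FBS, 3.29 and 3.98 CPM in MS-, and 11.4 and 8.63 CPM in MS+, and fell in both (-2.74 and -1.5, SE 0.19, limma, adjusted p = 0.00185 and 0.00853). Without FBS of rat 1 the latter was 0.0632. Cdc20, an activator of the anaphase-promoting complex, had 33.4 and 31.8 CPM in FBS and 4.57 and 4.70 CPM in MS-, a fall (-2.58, SE 0.17, limma, adjusted p = 0.00185). Fbxo5, an inhibitor of the same complex, had 6.88 and 7.30 CPM in FBS and 1.26 and 2.75 CPM in MS+, a fall (-1.47, SE 0.30, limma, adjusted p = 0.0304, and 0.136 without MS+ of rat 1).

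With the block, Cdc20, Ccna2 and Cdk1 were called higher in MS+ than in MS- (limma, adjusted p = 0.000166, 0.00105 and 0.000365), with log2 differences of 1.40, 1.24 and 1.17. Of all rows the block called 5.27% higher here. Without the block none of the 12 was called by limma, edgeR or limma-voom, and DESeq2 called 3. At an unadjusted p under 0.05 by limma, 4 were higher and 1 lower, beside 7.53% and 7.2% of all rows. Among 9820 rows DESeq2 called 93 higher and 30 lower. The scaffolds Cul1 and Cul4a, the most abundant of the list, differed by -0.22 and 0.05. Cul1 had 177 and 175 CPM in MS- and 150 and 152 CPM in MS+, and Cul4a 101 and 97.6 CPM in MS- and 105 and 100 CPM in MS+.

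**Figure D5:**
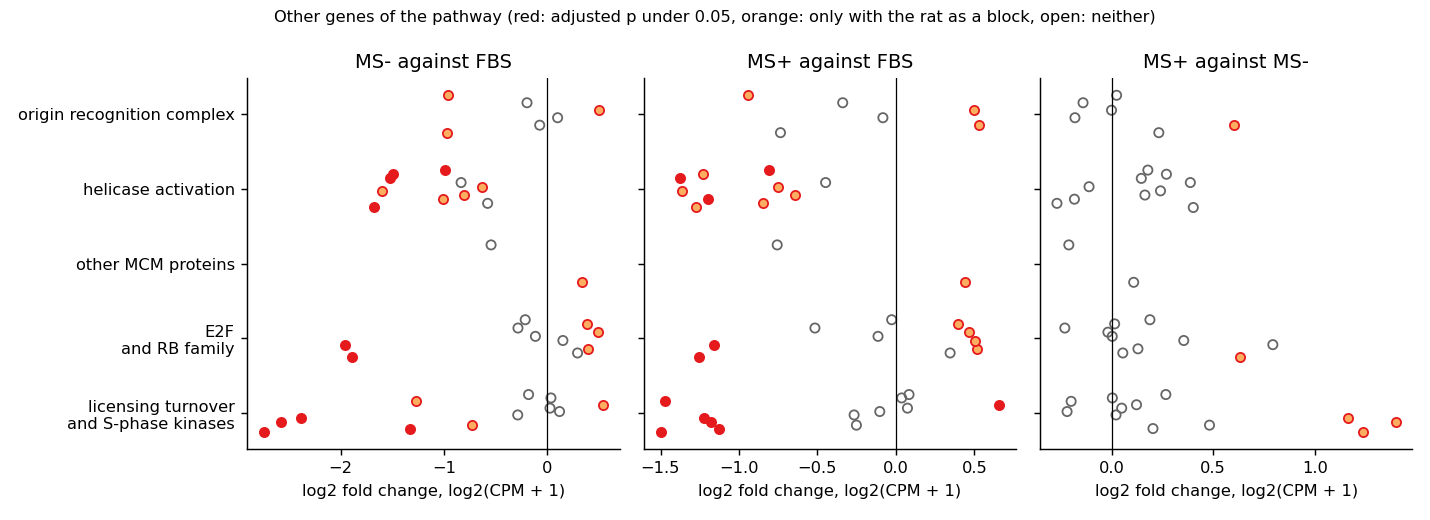
Log2 fold change on the log2(CPM + 1) scale (x axis) of the other pathway genes, 1 point per gene, by list and comparison. Filled red points have a limma adjusted p under 0.05, orange points only with the rat as a block, and open points neither; helicase activation lies wholly left of 0 against FBS, and the origin recognition complex lies on both sides.

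The rows most like the members were found by the Pearson correlation of log2(CPM + 1), over the 6 libraries, with the mean standardized profile of the 10 members, among 8363 rows with a mean of at least 5 CPM. They were Igsf3 (r = 0.997), Ogfr (0.997), Pcbp4 (0.994), Ift46 (0.993) and Ttyh3 (0.992). Igsf3 had 61.6 and 65.2 CPM in FBS, 27.4 and 29.3 CPM in MS-, and 34.2 and 31.4 CPM in MS+. The 6 points share libraries with the members and fall into 3 groups, so these values are a description. The members' own r ran from 0.798 (Mcm2) to 0.994 (Cdc6), each being part of the profile.

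The cell type was checked by markers. All 10 of 10 fibroblast markers were detected, with a summed signal of 81174 to 88030 CPM in FBS, 62835 to 65442 CPM in MS- and 71283 to 73968 CPM in MS+, of which Prg4, the lubricin gene of the lining, gave 7 to 20 reads. Macrophage markers summed to 13.8 to 20.9 CPM, mostly Cd14, with Ptprc, Aif1, Lyz2, Itgam and Cd163 at 0. Endothelial markers reached 1.47 CPM and lymphocyte markers 0.829 CPM, and blood and epithelial markers were at 0. Skeletal muscle markers summed to 939 to 1128 CPM in FBS, 772 to 922 CPM in MS- and 1035 to 1208 CPM in MS+, nearly all from Acta1. The fibroblast sum was highest in FBS, as every member was. It was higher in MS+ than in MS-, an order that not all members shared, and its part in the results was not tested.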

How the data were processed

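RNA of RASFLs from 2 rats under 3 sera (6 libraries) was sequenced. The authors aligned reads to rn4 with Bowtie2 2.1.0, counted them per transcript with HTSeq 0.5.4p3 (intersection-nonempty; strand use not stated) and deposited a signal, the reads relative to TMM-scaled library sizes (CPM). Dividing by the value of 1 read returned whole reads for 100% of values (tolerance 1e-06 reads). edgeR on these reads called 273 rows lower and 191 higher in MS- against FBS, 461 and 483 in MS+ against FBS, and 1 and 2 in MS+ against MS-. Intervals and floors take in counting error alone, as reads carried no molecular identifiers. The libraries of a group differed by more than counting error. The chi-square per degree of freedom, over rows with enough reads to compare, was 15.1 in FBS, 13.6 in MS- and 14.5 in MS+.

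Rows with at least 1 CPM in both libraries of a group were kept (9820), log2(CPM + 1) was fitted on condition with limma 3.58.1 in R 4.3.3 (trend, two-sided, Benjamini-Hochberg), and code was tested on simulated data. The same rats supply every group, so replicate numbers pair the libraries, and deviations from group means correlated at 0.49 to 0.62. Alternatives used edgeR 4.0.16, DESeq2 1.42.0, limma-voom, a rat block, other scaling, filters and pseudocounts, and leaving out libraries.

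Members, lists and motif words were chosen with earlier results of these data known. In each pathway list the 2 called genes with the largest change are described with values, or, with none called, the 2 most abundant; others are named from the calls with the rat as a block, chosen after their values were seen. Accessions of 9 of 10 members were found in the GRCr8 gene table (Mcm5 was matched by symbol), used for names and promoters only.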

Additional observations from a re-analysis of the deposited data

Results flagged for a closer look

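In MS+ against MS- 2 members moved in opposite directions in the 2 rats, and the difference between rats was not tested. Mcm3 had a log2 difference of -0.46 in rat 1 and 0.59 in rat 2. Mcm6 had -0.12 in rat 1 and 0.13 in rat 2.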

How the results depend on the processing

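The counts of called members, Mcm5 aside, ran from 3 to 7 in MS- against FBS and from 0 to 7 in MS+ against FBS when 1 library was left out, where fewer libraries stay in the fit and a lone library is assumed to vary like the others. Other alternatives kept both counts within 1.5 times. For MS+ against MS- the count of members called higher was 1, not 0, in limma with the replicate block and in edgeR with it. The block changed no other call of a member but that of Mcm2 in MS- against FBS. The median log2 fold change in MS- against FBS was -2.31 with DESeq2, -2.30 with edgeR, -2.30 with edgeR and the replicate block, -2.26 with limma-voom, -2.24 with a pseudocount of 0.1 and -1.05 with 5. In MS+ against FBS it was -1.71, -1.70, -1.70, -1.69, -1.69 and -1.0 in that order. In MS+ against MS- it was 0.78, 0.77, 0.77, 0.75, 0.74 and 0.13, and 0.21 in a fit of these 2 groups alone, in which 9 members passed the filter. A pseudocount shrinks low genes by construction. The median of all rows moved by less than 0.05 under each scaling.

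In MS+ against MS- a few small differences changed sign, none of them called. Leaving out 1 library gave -0.23 to 0.36 for Mcm3, -0.072 to 0.074 for Mcm6, -0.12 to 0.12 for Orc4, -0.26 to 0.037 for Gins2, -0.63 to 0.10 for Cdc7, -0.16 to 0.12 for Rb1 and -0.048 to 0.31 for E2f6. Mcm6 was -0.015 with library totals. Orc4 was 0.0020 with DESeq2, 0.0070 with DESeq2 size factors, 0.0038 with edgeR, 0.0071 with edgeR and the replicate block, and 0.00835 with limma-voom. The cause was not tested. Of 481 values of the 9 members under alternatives, 418 kept their direction and their side of the threshold, 54 lost a call, 4 gained one and 5 changed sign.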
